A study of Arabidopsis thaliana with 24 samples.

Results

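Transporters formed a set of 51 probe sets of 50 Arabidopsis genes whose annotation in the study's table of mRNA rates held the word transporter, antiporter, symporter, aquaporin or permease. They were the matches among the 1999 rows of that table used here, after rows naming a protein kinase, a transcription factor or ubiquitin had been left out, and they stand within 22746 probe sets of the ATH1 array. The choice used annotation and no signal, but the table lists genes for which a rate had been worked out from these samples, which needs RNA that declines while new RNA is labeled. The other 1948 rows, of which 1919 passed the limit on low signals, were therefore given beside the transporters, as well as all probe sets of the array that passed it. All 51 transporter probe sets passed. The rows ran in probe set order, so 38 of the 51 probe sets lay on chromosome 5, and 6, 2, 2 and 3 lay on chromosomes 1, 2, 3 and 4.

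Whole Arabidopsis seedlings of ecotype Columbia, none of them mutant or transgenic, were labeled with 4-thiouridine (4SU), a nucleoside that cells build into the RNA they make and that allows this newly synthesized RNA to be pulled out afterwards. The labels give an age of 10 days, with germination at 22°C for 3 days and then 7 days at 27°C or 17°C under 12 hours of light. They add 12 hours afloat on MS medium and 1.5 mM 4SU; the methods give a slightly greater age and concentrations that varied with condition. Each temperature has 4 groups of 3 biological replicates: total RNA at the end of labeling (1 hour at 27°C, 2 hours at 17°C), the newly synthesized RNA (NS) and the pre-existing RNA (PE) separated from it, and total RNA at time 0, shortly after dawn. Temperature and labeling time cannot be told apart at the end of labeling, in NS RNA, in PE RNA or in the change during labeling. The whole seedling was one sample, so fewer cells of a type and less RNA per cell cannot be told apart.

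A plant cell moves sugars, amino acids, metals and phosphate across its membranes through carrier proteins that couple the solute to a proton or another ion, exchange one solute for another, or spend ATP. Carriers of the plasma membrane take up and release solutes, those of the tonoplast fill and empty the vacuole, and those of the plastid envelope link photosynthesis to the rest of metabolism. Many carrier genes follow light, nutrient state and time of day.

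The 51 probe sets were sorted into 7 classes by the annotation. For some genes, where it gave no substrate or a wide one, they were sorted by what the gene or its family is known for. These were 11 for amino acids, peptides and nitrate, 10 for metals and other cations, 7 for sugars and organic acids, 6 for nucleobases and folate, 2 ATP-binding cassette (ABC) transporters, 9 with no substrate assigned and 6 of protein traffic. PDE135 (a nucleobase ascorbate transporter by its synonym), AT5G25050 and AT5G10820 (integral membrane transporter family proteins) thus stand with nucleobases and folate, and YSL3, annotated for oligopeptides, stands with the metals. The sorting was not even. PHT4;5, PHT4;6, CLT3 and AT5G42420 stayed among the 9, although their names or families point to a substrate. The synonym of AT5G42420 names it as a UDP-Rha/UDP-Gal transporter. Counts by class depend on this sorting. The label transporter was too wide for the 6 of protein traffic. Exportin XPO1A carries proteins out of the nucleus, OXA1 inserts proteins into mitochondrial membranes, and TIM17-3 is annotated as a subunit of an inner membrane translocase. APG5 is an autophagy protein, AT3G51890 is a clathrin light chain, and AT5G57460 is annotated for protein binding and as a protein transporter. That left 45 probe sets of 44 genes as carriers. Of these 45, 3 probe sets of 2 genes, CLT3 (AT5G12170) and AT5G38380, entered through a domain or a similarity named in the annotation. The probe set of PUP18 also covers AT1G57980, and that of AT5G25050 is marked as able to bind RNA of related genes.

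The values were MAS5 signals, one brightness per probe set and array, with each array scaled to one mean, so a difference is relative to the array as a whole. Replicates correlated at 0.959 to 0.987 (Pearson's r over probe sets, log2 signal). The SD between replicates had a median of 0.214 on the log2 scale for the transporters and 0.223 for all probe sets. Of the markers listed for seedling organs, 1 of 8 for shoot and 3 of 8 for root had a named probe set. The shoot marker RCA read 15450 to 28120 over the 24 arrays. The 3 root markers summed to 5437 to 5951 in NS RNA at 27°C and 5207 to 6470 in NS RNA at 17°C, against 10100 to 18040 in total and PE RNA. PYK10 alone made up nearly all of that sum, with means of 5436 in NS RNA and 15050 in PE RNA at 27°C. EXPA18 had means of 129 in NS RNA and 121 in PE RNA at 27°C, and EXPA7 had 117 in NS RNA and 209 in PE RNA. No marker was at 0, and their part in the differences between NS and PE RNA was not tested.

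At time 0, before any 4SU had entered, the groups differed in growth temperature and not in labeling time. Seedlings grown at 27°C had more transcript than those at 17°C for 7 transporters, 4 of them carriers of amino acids, polyamines or peptides, and less for 2, both of the sugar class. A probe set was called at a Benjamini-Hochberg adjusted p under 0.01 (limma, adjusted over all probe sets that passed the signal limit) with a fold above 1.5. The 9 calls are 17.6% of the transporters, against 17.6% of the other rows of the table and 22.8% of all probe sets. Of the other rows 11.3% were higher and 6.31% lower, and of all probe sets 10.7% were higher and 12.1% lower. The median difference was 0.16 for the transporters, 0.05 for the other rows and 0.00 for all probe sets (log2 of 27°C over 17°C).

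PUT1 (AT1G31820), annotated as an amino acid permease family protein and named as a polyamine uptake transporter, differed most. Its signals were 450, 473 and 473 at 27°C, against 111, 128 and 156 at 17°C. The groups lay far apart, with a log2 difference of 1.83 ± 0.16 (SE; adjusted p = 2.6e-06). The oligopeptide transporter OPT1 (AT5G55930) read 1106, 646 and 1352 at 27°C, against 307, 345 and 247 at 17°C. Its log2 difference was 1.74 ± 0.26 (adjusted p = 0.00014), and the lowest array at 27°C stood well above the highest at 17°C.

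CAX7 (AT5G17860), annotated as a calcium exchanger and an antiporter of calcium and sodium, had 829, 681 and 808 at 27°C and 305, 298 and 348 at 17°C. The log2 difference was 1.28 ± 0.15 (adjusted p = 2e-05) with no overlap. The cationic amino acid transporter CAT2 (AT1G58030) had 4099, 5278 and 4688 at 27°C and 2008, 2039 and 2039 at 17°C, a log2 difference of 1.20 ± 0.14 (adjusted p = 2.7e-05). These 4 genes, PUT1, OPT1, CAX7 and CAT2, kept the call under each of the alternatives tried.

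The other 3 higher at 27°C were smaller and lost the call when single arrays were left out. The amino acid permease AAP4 (AT5G63850) had 511, 584 and 621 at 27°C and 344, 167 and 409 at 17°C, a log2 difference of 0.99 ± 0.25 (adjusted p = 0.0057). The vacuolar exchanger MHX (AT2G47600), which moves magnesium or zinc against protons, had 889, 1006 and 912 at 27°C and 555, 639 and 495 at 17°C (log2 difference 0.74 ± 0.18, adjusted p = 0.0056). ABCG22 (AT5G06530), an ABC transporter known for its part in stomatal control, had 1035, 1041 and 1245 at 27°C and 777, 667 and 677 at 17°C (0.65 ± 0.14, adjusted p = 0.0023). The groups did not overlap for any of the 3. The adjusted p of AAP4 became 0.011, 0.016 and 0.023 without 27°C replicate 1, 2 or 3. That of MHX became 0.013 to 0.027 without any one of 5 arrays (each of the 27°C replicates, and 17°C replicates 1 and 3). That of ABCG22 became 0.01 to 0.013 without 17°C replicate 2 or 3 or 27°C replicate 3.

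GPT1 (AT5G54800), which brings glucose 6-phosphate into plastids, was lower at 27°C. It had 367, 426 and 387 at 27°C, against 717, 739 and 820 at 17°C, a log2 difference of -0.95 ± 0.13 (adjusted p = 8.2e-05). The nucleotide-sugar transporter gene AT5G65000 had 908, 878 and 901 at 27°C and 1484, 1259 and 1318 at 17°C (-0.59 ± 0.13, adjusted p = 0.0028), a difference just past the fold limit. Without 17°C replicate 1 its adjusted p was 0.018, and without 27°C replicate 2 its difference of -0.58 was under that limit. By class, 4 of the 11 amino acid, peptide and nitrate carriers were called higher, with a class median of 0.76. All 10 metal and cation carriers had a fitted difference above 0, and 2 were called. A fitted difference above 0 was found for 32 of the 51 transporters and for 1054 of the 1919 other rows. Of the 7 sugar and organic acid carriers 2 were called lower and none higher, while none of the 6 nucleobase and folate carriers and none of the 6 protein traffic genes was called.

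**Figure D1:**
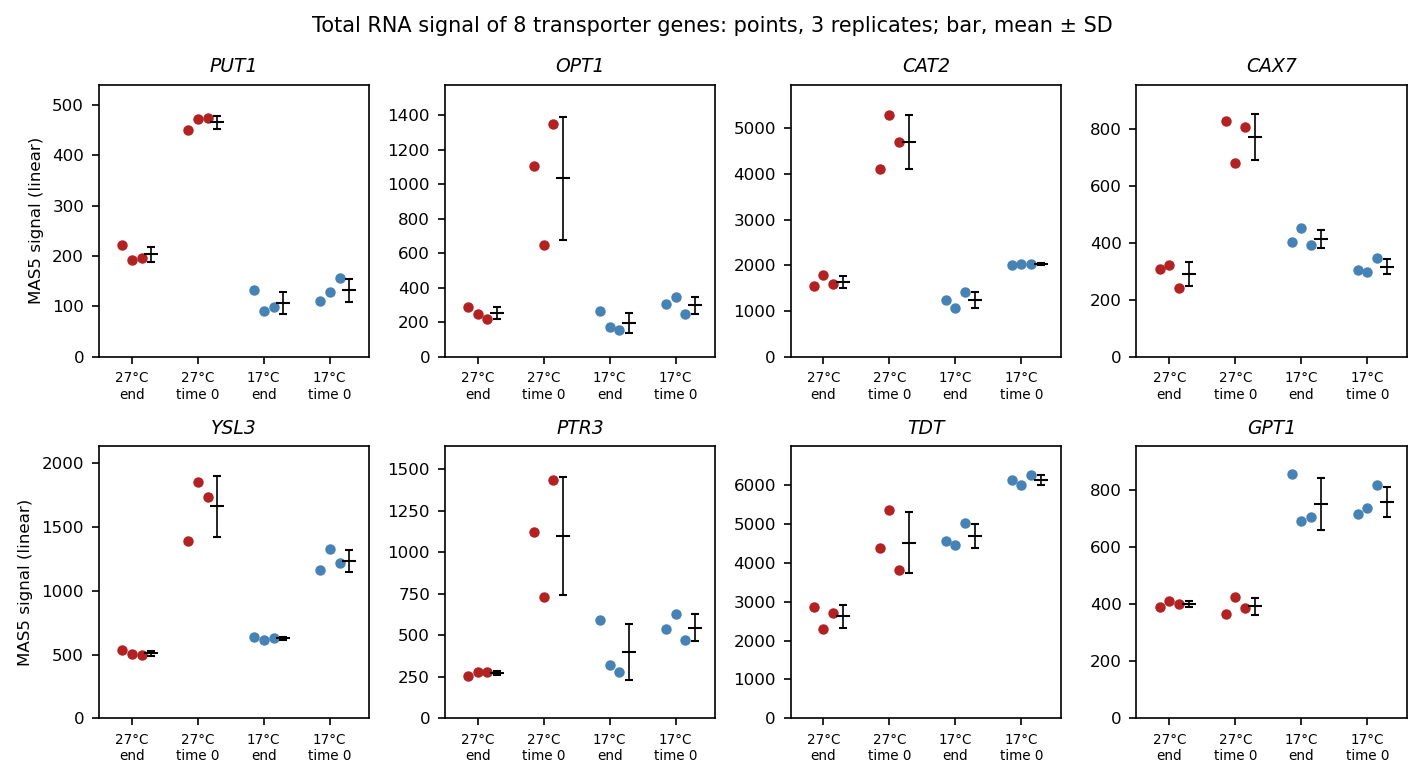
Signals in total RNA (y axis, MAS5 signal) of 8 transporter genes in 4 groups (x axis: 27°C end of labeling, 27°C time 0, 17°C end of labeling, 17°C time 0). Points are the 3 replicates and bars are the mean ± SD. PUT1, OPT1, CAX7, CAT2, PTR3 and YSL3 have their highest mean at 27°C time 0, and both 27°C groups of GPT1 stand below both 17°C groups.

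At the end of labeling 4 transporters differed between the temperatures, 1 higher and 3 lower at 27°C, which is 7.84% against 8.6% of the other rows and 10.8% of all probe sets (4.97% higher, 5.85% lower). PUT1 stayed higher, with 221, 193 and 196 at 27°C and 132, 90.5 and 99.4 at 17°C (log2 difference 0.94 ± 0.16, adjusted p = 0.0011). GPT1 stayed lower, with 391, 412 and 399 at 27°C and 856, 691 and 706 at 17°C (-0.90 ± 0.13, adjusted p = 0.00028). PUT1 and GPT1 were the 2 transporters called at both times in the same direction; without the filter on low signals the adjusted p of PUT1 at the end was 0.011, and its call was lost.

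The tonoplast dicarboxylate transporter TDT (AT5G47560), which carries malate across the vacuolar membrane, had 2865, 2290 and 2698 at 27°C and 4545, 4467 and 5030 at 17°C, a log2 difference of -0.84 ± 0.15 (adjusted p = 0.001). At time 0 TDT had 4368, 5356 and 3820 at 27°C against 6121, 5995 and 6256 at 17°C, a log2 difference of -0.45 that was not called (adjusted p = 0.023). AT4G36790, with no substrate in the annotation, had 105, 92.4 and 90.5 at 27°C and 163, 172 and 208 at 17°C (-0.91 ± 0.18, adjusted p = 0.0023). The call of AT4G36790 was lost without replicate 3 at 27°C (adjusted p = 0.012) or at 17°C (0.013).

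**Figure D2:**
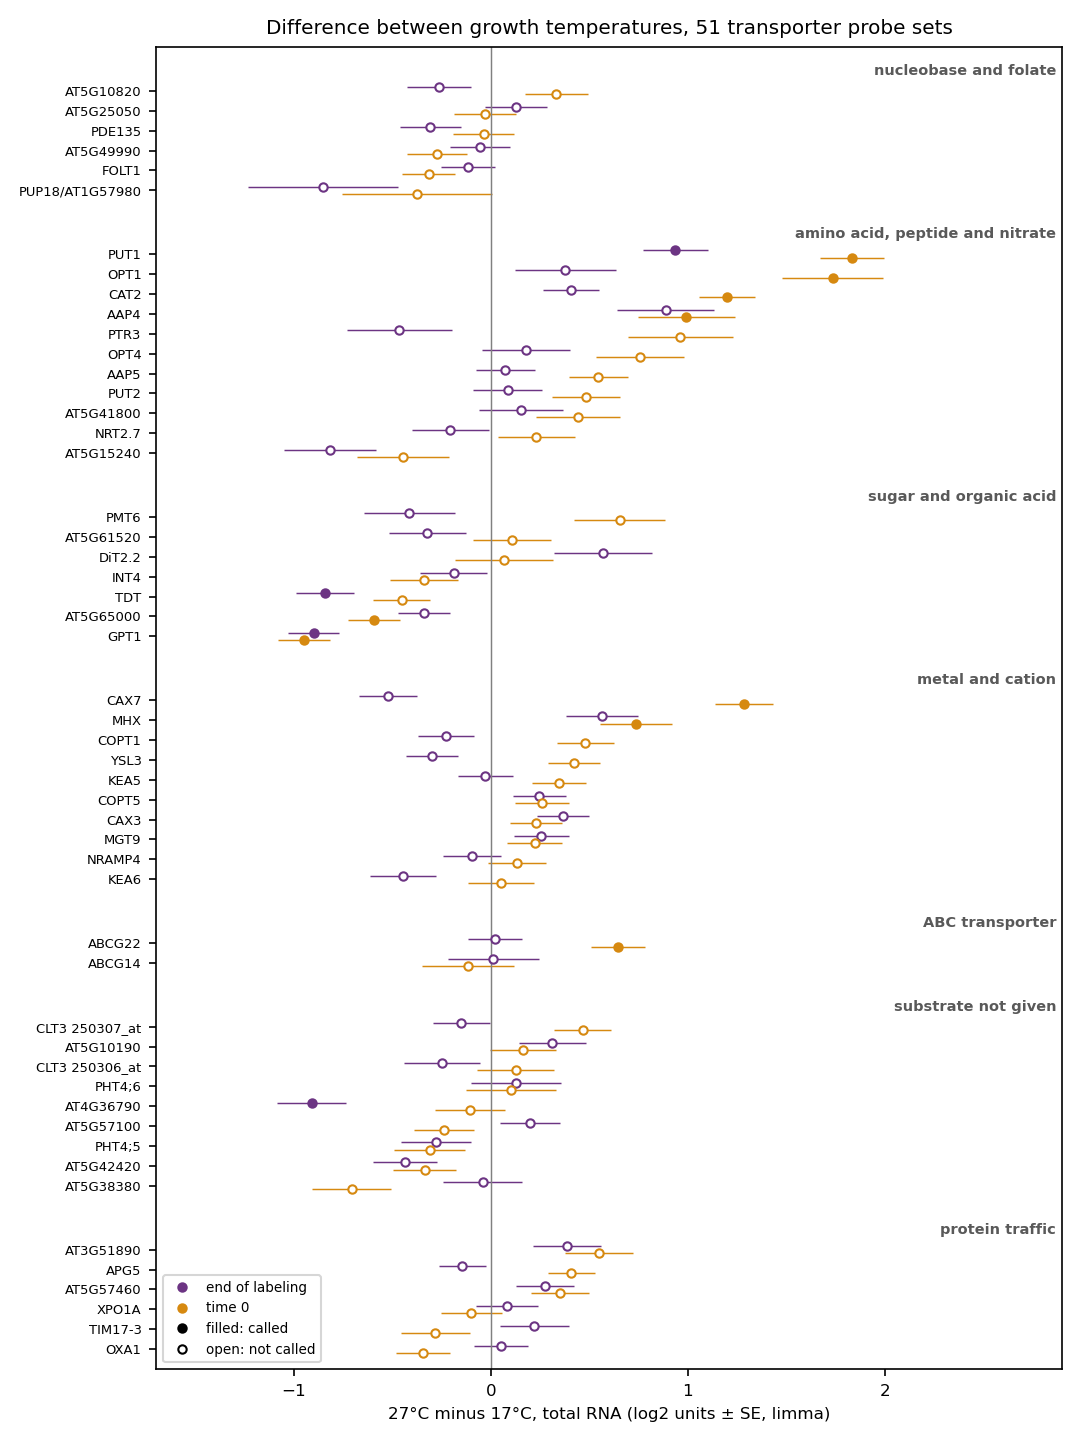
Difference of total RNA signals between 27°C and 17°C (x axis, log2) for the 51 transporter probe sets, grouped by class (y axis), for the end of labeling and for time 0, with bars for the SE. Filled points passed the test; at the end 1 lies above and 3 below 0, and at time 0, 7 lie above and 2 below.

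While the seedlings were being labeled at 27°C, 17 transporters fell and none rose. This is 33.3% of the transporters, against 22.9% of the other rows and 25.7% of all probe sets called in either direction. Counting falls alone, the shares were 33.3%, 22.2% and 14.5%, while 0.73% of the other rows and 11.2% of all probe sets rose. Falling transcripts were favored by the way the table was made, so the other rows are the closer set. The median change was -0.51 for the transporters, -0.29 for the other rows and -0.04 for all probe sets (log2 of the end over time 0). The time 0 arrays at 27°C enter both this comparison and that of the temperatures at time 0, so a high reading there raises one and lowers the other.

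By class the largest count came from the amino acid, peptide and nitrate carriers, which were also the largest class. Of these 11 carriers 6 fell (median -0.86) and all 11 had a fitted change below 0. Beside them, 4 of the 9 with no substrate given fell, 3 of the 7 sugar and organic acid carriers and 0 of the 6 nucleobase and folate carriers. A fitted change above 0 was found for 7 of the 51 transporters and for only 415 of the 1919 other rows. OPT1 had 291, 247 and 220 at the end, against the 1106, 646 and 1352 of time 0, a log2 change of -1.98 ± 0.26 (adjusted p = 4.1e-05). PTR3 (AT5G46050), a transporter of small peptides, had 258, 280 and 281 at the end and 1120, 728 and 1438 at time 0 (-1.95 ± 0.27, adjusted p = 6.8e-05). For both, the 3 arrays of time 0 were scattered while the 3 arrays of the end lay close together, and every end value was below every time 0 value.

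CAT2 had 1537, 1790 and 1581 at the end and 4099, 5278 and 4688 at time 0 (-1.51 ± 0.14, adjusted p = 3.2e-06). PUT1 fell by 1.20 ± 0.16 on the log2 scale (adjusted p = 6.6e-05). The remaining 2 of the class were PUT2 (AT1G31830), the polyamine uptake gene beside PUT1, and the nitrate transporter NRT2.7 (AT5G14570), known for loading nitrate into seed vacuoles. PUT2 fell by 1.12 and NRT2.7 by 0.86. NRT2.7 lost the call without time 0 replicate 2 (adjusted p = 0.016) or end replicate 1 or 3 (0.015 each).

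Of the 10 metal and cation carriers 3 fell. YSL3 (AT5G53550), which moves iron and other metals bound to nicotianamine, had 534, 503 and 498 at the end and 1394, 1849 and 1739 at time 0 (-1.69 ± 0.13, adjusted p = 6.7e-07). CAX7 had 309, 324 and 242 at the end and 829, 681 and 808 at time 0 (-1.41 ± 0.15, adjusted p = 7.2e-06). KEA6 (AT5G11800), a potassium efflux antiporter, fell by 0.61 (adjusted p = 0.0099), at the edge of the limit, and lost the call without any one of 8 arrays (adjusted p up to 0.045).

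Of the 7 sugar and organic acid carriers 3 fell. PMT6 (AT4G36670), annotated as a mannitol transporter, had 1375, 1245 and 902 at the end and 2618, 2091 and 3614 at time 0 (-1.23 ± 0.23, adjusted p = 0.00079). The putative hexose transporter AT5G61520 had 224, 343 and 289 at the end and 767, 556 and 629 at time 0 (-1.20 ± 0.20, adjusted p = 0.00028). TDT fell by 0.78. Among the 9 probe sets with no substrate given 4 fell: AT4G36790, with 105, 92.4 and 90.5 at the end and 326, 267 and 219 at time 0 (-1.48 ± 0.18, adjusted p = 2.2e-05), both probe sets of CLT3 (-1.13 and -1.11), and AT5G42420 (-0.68). CLT3 belongs to a family of plastid transporters of thiols such as glutathione. AT5G42420 lost the call without time 0 replicate 2 (adjusted p = 0.018) or end replicate 1 (0.017) or 3 (0.02). In the protein traffic class APG5 fell by 1.05 on the log2 scale. None of the 6 nucleobase and folate carriers and neither ABC transporter was called.

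At 17°C, over a labeling time of 2 hours, 6 transporters fell and none rose, or 11.8% against 10.3% of the other rows and 12.3% of all probe sets (5.79% rising, 6.53% falling). Of the other rows, too, 0 rose, so the single direction was shared by the rest of the table. YSL3 had 637, 616 and 632 at the end and 1160, 1325 and 1217 at time 0 (log2 change -0.97 ± 0.13, adjusted p = 0.00014). AT5G65000 had 868, 732 and 750 at the end and 1484, 1259 and 1318 at time 0 (-0.79 ± 0.13, adjusted p = 0.00069). These 2 kept the call under each alternative tried.

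The other 4 did not. CAT2 had 1232, 1074 and 1419 at the end and 2008, 2039 and 2039 at time 0 (-0.72 ± 0.14, adjusted p = 0.0023). AT5G38380, similar to cation efflux proteins by its annotation, had 241, 302 and 184 at the end and 467, 375 and 491 at time 0 (-0.89 ± 0.20, adjusted p = 0.0051). PUT2 had 312, 297 and 398 at the end and 497, 534 and 616 at time 0 (-0.72 ± 0.17, adjusted p = 0.0084), and AT5G25050, of the integral membrane transporter family, had 226, 143 and 183 at the end and 282, 317 and 278 at time 0 (-0.69 ± 0.16, adjusted p = 0.0057). In all 4 the end lay below time 0 without overlap. CAT2 lost the call without time 0 replicate 1 or 3 (adjusted p = 0.01 each) or end replicate 2 (0.014). AT5G38380 lost it without replicate 1 or 3 of time 0 (0.023 and 0.025) or of the end (0.015 and 0.026). PUT2 lost it without any one of 7 arrays (up to 0.041) and AT5G25050 without any one of 5 (up to 0.028). With the replicate number as a block the adjusted p was 0.016 for PUT2 and 0.011 for AT5G25050. YSL3, CAT2 and PUT2 were the 3 transporters called as falling at both temperatures.

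**Figure D3:**
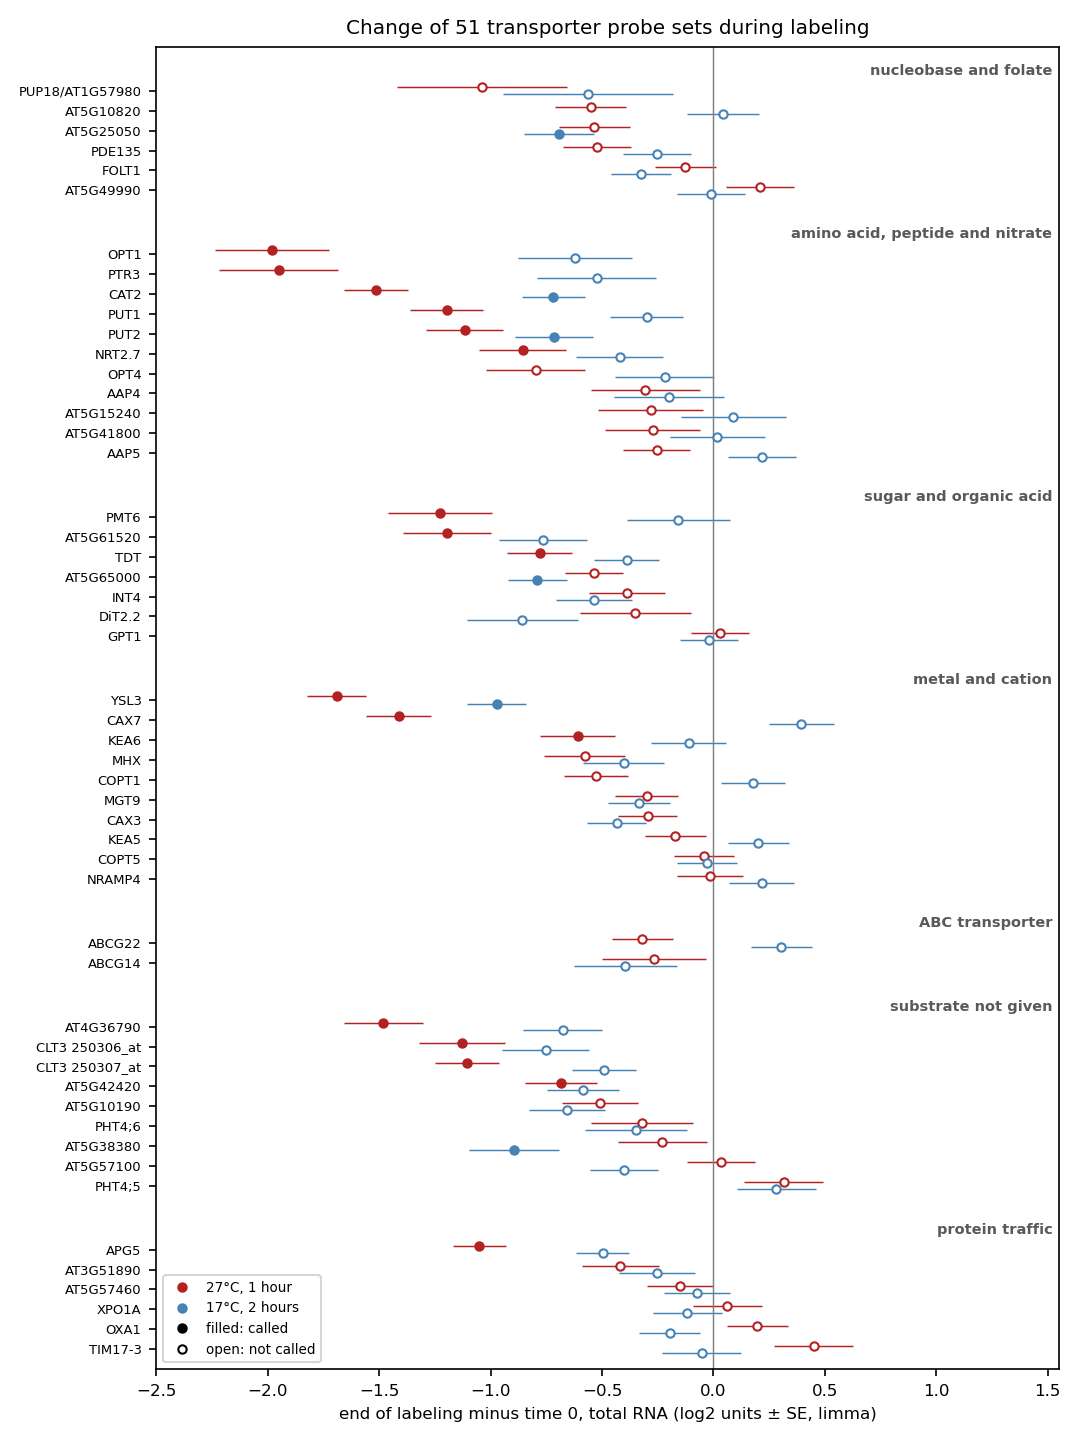
Change of total RNA during labeling (x axis, end minus time 0, log2 ± SE) for the 51 transporter probe sets, at 27°C over 1 hour and at 17°C over 2 hours, grouped by class. Filled points passed the test; 17 do at 27°C and 6 at 17°C, all of them below 0.

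The change during labeling itself differed between the temperatures for 1 transporter, or 1.96% against 1.2% of the other rows and 2.32% of all probe sets, of which 0.7% had the higher and 1.62% the lower change at 27°C (test of the difference of the changes in the fit of the 12 total RNA arrays). This was CAX7. It fell at 27°C, with the values given above, while at 17°C it had 403, 452 and 393 at the end against 305, 298 and 348 at time 0, so that every end value at 17°C lay above every time 0 value. The fitted change at 17°C was 0.39, and the change at 27°C minus that at 17°C was -1.81 ± 0.21 on the log2 scale (adjusted p = 0.00025). The call of CAX7 was kept under each of 16 alternatives, and leaving out 27°C time 0 replicate 2 raised the count of transporters called to 2.

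Among the 4 groups of total RNA, CAX7 had its highest mean at 27°C time 0 and its lowest at 27°C end. At time 0 its signal was the higher one in 27°C seedlings, and at the end it read 309, 324 and 242 at 27°C against 403, 452 and 393 at 17°C, a log2 difference of -0.52 that did not pass the test (adjusted p = 0.02). For 33 of the 51 probe sets the fitted change was lower at 27°C than at 17°C. It was higher at 27°C for 18 of the 51 and for 862 of the 1919 other rows. The differences of the changes of PTR3 (-1.43, adjusted p = 0.034), OPT1 (-1.36, adjusted p = 0.035), PUT1 (-0.90, adjusted p = 0.03), CAT2 (-0.80, adjusted p = 0.027), YSL3 (-0.72, adjusted p = 0.032) and COPT1 (-0.71, adjusted p = 0.049) were above the limit of 0.01 and were not called.

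NS RNA was made during labeling and reads recent transcription, less whatever decayed in that time. Between the temperatures 2 transporters were higher and 2 lower at 27°C in NS RNA, or 7.84% against 10.4% of the other rows and 11.9% of all probe sets (6.1% higher, 5.81% lower). PUT1 had 409, 400 and 413 at 27°C, against 193, 154 and 180 at 17°C (log2 difference 1.22 ± 0.18, adjusted p = 0.00049). COPT5 (AT5G20650), a copper transporter of internal membranes, had 2920, 2770 and 2996 at 27°C and 2001, 1638 and 1671 at 17°C (0.72 ± 0.14, adjusted p = 0.0026). TDT had 5052, 4012 and 4438 at 27°C and 9104, 9317 and 10208 at 17°C (-1.09 ± 0.15, adjusted p = 0.00022). PHT4;5 (AT5G20380), whose reference name puts it in a phosphate transporter family, had 994, 935 and 1174 at 27°C and 1620, 1618 and 1972 at 17°C (-0.75 ± 0.17, adjusted p = 0.007). All 4 were without overlap. COPT5 lost the call without 27°C NS replicate 3 (adjusted p = 0.013) or 17°C NS replicate 2 (0.015) or 3 (0.012), and PHT4;5 without any one of 7 arrays (up to 0.031). Without any one of the first 3 arrays named, 2 transporters were called, 1 higher and 1 lower.

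In PE RNA 1 transporter was higher and 2 were lower at 27°C, or 5.88% against 6.77% of the other rows and 8.89% of all probe sets (3.39% higher, 5.49% lower). AAP4 had 525, 465 and 447 at 27°C and 197, 201 and 274 at 17°C (log2 difference 1.11 ± 0.15, adjusted p = 0.00039). TDT had 1730, 1649 and 1610 at 27°C and 3282, 3467 and 4379 at 17°C (-1.15 ± 0.15, adjusted p = 0.00022). GPT1 had 435, 452 and 480 at 27°C and 673, 746 and 766 at 17°C (-0.67 ± 0.16, adjusted p = 0.0092). The call of GPT1 was lost without any one of 10 arrays (adjusted p up to 0.038). TDT was thus lower at 27°C in total RNA at the end, in NS RNA and in PE RNA, by log2 differences of -0.84, -1.09 and -1.15. NS and PE RNA were separated from that total RNA, so these are not separate observations. Its NS signal is not an hourly rate. The transcription rate worked out below was higher at 27°C (1715 against 878 signal units per hour). After quantile normalization of the arrays 2 transporters were higher and 1 lower in PE RNA.

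More fitted signal in NS than in PE RNA was found for 1325 (27°C) and 1279 (17°C) of the 1919 other rows. Of the 51 transporter probe sets this held for 39 at 27°C and 41 at 17°C. At 27°C 18 were higher in NS RNA and 2 lower, or 39.2% called against 57.4% of the other rows and 55.4% of all probe sets (37.6% higher, 17.8% lower). At 17°C 22 were higher and 4 lower, or 51% against 58.8% and 57.3% (35.6% higher, 21.7% lower). The median NS minus PE difference of the transporters was 0.53 at 27°C and 0.51 at 17°C (log2), that of the other rows 0.51 and 0.45, and that of all probe sets 0.37 and 0.29. Quantile normalization moved the median of all probe sets by -0.29 at 27°C and -0.22 at 17°C, to 0.08 and 0.07, and that of the transporters to 0.05 and 0.36. The order of transporters and all probe sets at 27°C thus turned with the scaling. The calls were then 14 higher and 5 lower at 27°C, and 16 higher and 7 lower at 17°C.

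CAX7 was the most NS-rich transporter. At 27°C it had 1067, 618 and 774 in NS RNA and 191, 131 and 126 in PE RNA, a log2 difference of 2.45 ± 0.20 (adjusted p = 6.6e-07). At 17°C it had 1516, 1445 and 1301 in NS RNA and 227, 256 and 231 in PE RNA, a log2 difference of 2.58 ± 0.20 (adjusted p = 3.4e-07). Next at 27°C came PUT1, with 409, 400 and 413 in NS RNA and 136, 92.1 and 136 in PE RNA (1.77 ± 0.18, adjusted p = 2.9e-06). The amino acid transporter family gene AT5G15240 had a difference of 1.51 at 27°C, with 256, 267 and 285 in NS RNA and 110, 58.8 and 130 in PE RNA, and TDT (1.43) and AT5G57100 (1.42) followed.

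At 17°C AT5G15240 (2.02 ± 0.24, adjusted p = 8.5e-06), the amino acid permease AAP5 (AT1G44100; 1.53), TDT (1.37) and PHT4;6 (AT5G44370; 1.36), of the same phosphate transporter family as PHT4;5, came after CAX7. For AAP5 the signals were 1656, 1140 and 1218 in NS RNA, against 529, 395 and 453 in PE RNA. The called differences at 17°C showed no overlap except for PMT6 and PTR3, where single NS and PE arrays crossed.

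Richer in PE RNA, which holds what was there before labeling, was COPT5 at both temperatures. It had 2920, 2770 and 2996 in NS RNA and 4985, 3936 and 4412 in PE RNA at 27°C (log2 difference -0.61 ± 0.14, adjusted p = 0.0014), and 2001, 1638 and 1671 in NS RNA and 3348, 3004 and 3189 in PE RNA at 17°C (-0.85 ± 0.14, adjusted p = 0.00011). At 27°C its fold was under the limit without NS replicate 2 or PE replicate 1, and after quantile normalization its difference was -0.31 (adjusted p = 0.075), which is no longer a call. GPT1 (-0.86 ± 0.16, adjusted p = 0.00025) and the chloroplast folate transporter FOLT1 (AT5G66380; -0.81 ± 0.19, adjusted p = 0.0018) were called at 17°C. At 27°C GPT1 had a difference of -0.39 and FOLT1 one of -0.53, neither called.

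**Figure D4:**
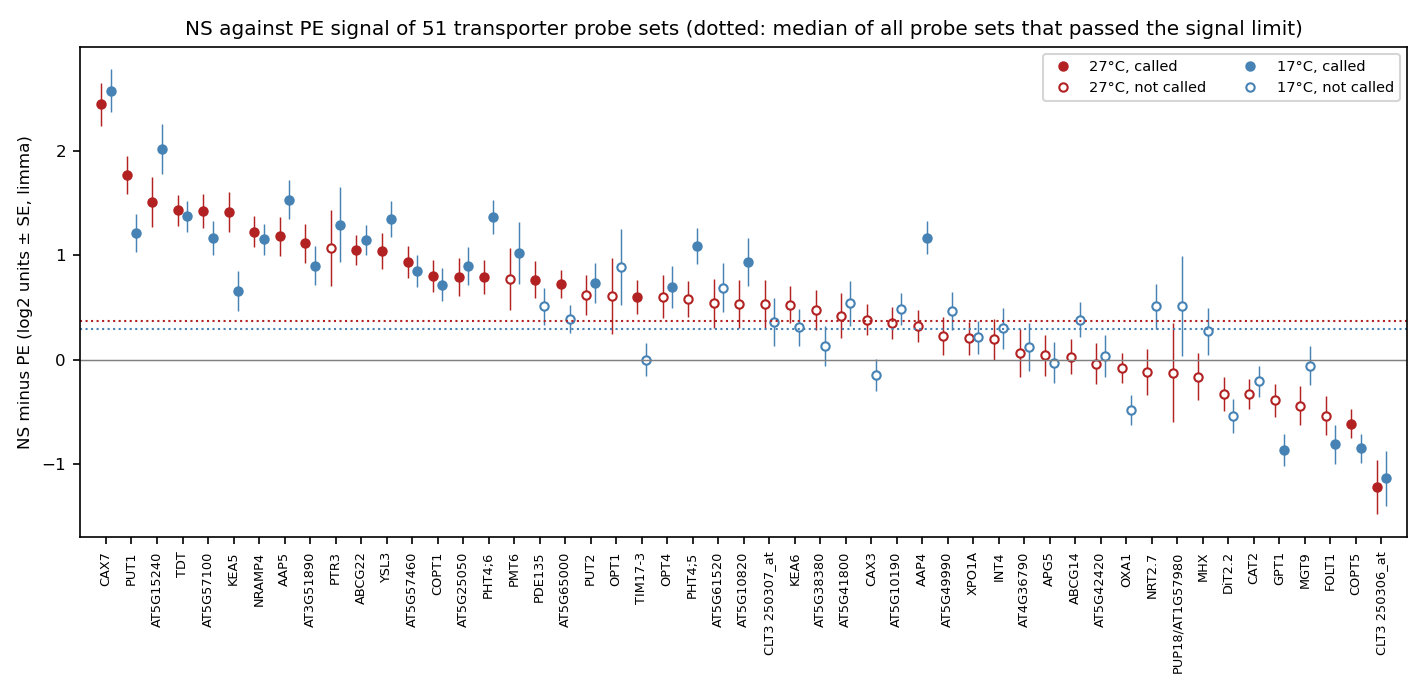
NS minus PE signal (y axis, log2 ± SE) for the 51 transporter probe sets (x axis, ordered by the value at 27°C) at 27°C and at 17°C, with the median of all probe sets as dotted lines (0.37 at 27°C, 0.29 at 17°C). Filled points passed the test; CAX7 lies highest at both temperatures, and 1 probe set of CLT3 lowest.

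The 2 probe sets of CLT3 gave different pictures of one gene. The probe set 250306_at had 129, 94.6 and 71.4 in NS RNA and 235, 216 and 216 in PE RNA at 27°C (log2 difference -1.22 ± 0.26, adjusted p = 0.001), and 119, 92.9 and 165 in NS RNA and 281, 194 and 357 in PE RNA at 17°C (-1.14 ± 0.26, adjusted p = 0.0017). The probe set 250307_at had 2287, 1807 and 1458 in NS RNA and 1321, 1381 and 1090 in PE RNA at 27°C (0.53, adjusted p = 0.05), and 2771, 1525 and 1550 in NS RNA and 1545, 1451 and 1383 in PE RNA at 17°C (0.36, adjusted p = 0.17). At 17°C the call of 250306_at was lost without NS replicate 2 or PE replicate 3 (adjusted p = 0.01 each). In total RNA both fell during labeling at 27°C, by 1.13 and 1.11 on the log2 scale. In hours, the half-life from 250306_at was 0.662 ± 0.0151 at 27°C and 2.45 ± 1.11 at 17°C, and that from 250307_at was 0.627 ± 0.0755 at 27°C and 2.64 ± 0.73 at 17°C (SD, n = 3 each).

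For rates, NS and PE signals were put on the scale of total RNA with 2 correction factors per temperature. The NS factor was 0.218 at 27°C and 0.134 at 17°C. The PE factor was 0.770 at 27°C and 0.848 at 17°C. The regression lines behind these factors had an r2 of 0.293 at 27°C and 0.347 at 17°C. Scaled in this way, NS RNA made up 29.1 ± 1.39% of total RNA at 27°C and 17.9 ± 0.586% at 17°C over the transporters (median over probe sets, mean ± SD of 3 replicates), against 27.3 ± 0.106% and 17.3 ± 0.284% over the other rows of the table and 25.4 ± 0.272% and 15.6 ± 0.160% over all probe sets. These shares depend on the regression line, and their SD leaves that out. With 1 line per replicate the NS factors were lower, at 0.146, 0.168 and 0.187 at 27°C and 0.0876, 0.121 and 0.0969 at 17°C. CAX7 had the highest share, 75.4%, 41.6% and 69.8% at 27°C and 50.5%, 42.8% and 44.3% at 17°C. The decay constant came from scaled PE over time 0 and the labeling time, and the transcription rate from scaled NS RNA with the loss during labeling added back. Both use the same arrays as the comparisons above. Each replicate value set NS and PE arrays against the time 0 array of the same number, which shared only that number with them. A half-life or rate of a single replicate thus rests on an arbitrary match, and so does its SD.

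Rates were obtained for 45 of the 51 probe sets, or 88.2%, against 77.6% of the other rows and 46.8% of all probe sets, a share that the table's make-up partly fixes. The 6 without rates had scaled PE RNA at or above time 0 in at least 1 replicate. These were NRAMP4 (AT5G67330), which releases iron and manganese from the vacuole, AAP4, the potassium antiporter KEA5 (AT5G51710), TIM17-3 and ABCG22 at 17°C, and the xanthine and uracil permease family gene AT5G49990 at 27°C.

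Transcription was faster at 27°C for 44 of the 45 (adjusted p under 0.05), beside 98% of all probe sets with rates (97.9% faster, 0.0823% slower). The correction factors of a temperature are common to all probe sets and replicates and enter every rate. The p values for differences of transcription and of decay leave out the error of these factors. The exception was PUP18 (AT1G57990), a purine permease, whose hourly transcription in signal units was 76.5 ± 26.1 at 27°C and 55.4 ± 16.6 at 17°C (SD, n = 3 each; adjusted p = 0.13). Rates in signal units per hour had a median of 180 (27°C) and 48.8 (17°C) over the transporters, against 146 and 41.8 over all probe sets, and depend on how bright each probe set is. The median Q10, the factor by which a rate grows over 10°C, was 3.39 for transcription and 2.96 for decay over the transporters. It was 3.45 and 2.99 over all probe sets and 3.47 and 3.06 over the other rows. Each decay Q10 was the mean half-life at 17°C over that at 27°C, so a single very long half-life can set it. The tests of decay used the log2 decay constants of the single replicates instead. The Q10 of transcription exceeded that of decay for 26 of the 45, or 57.8%, against 58.5% of all probe sets.

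For 9 transporters the transcription Q10 departed from the median of all probe sets (adjusted p under 0.05), 4 above and 5 below, which is 20% of the transporters with rates, against 15.8% of the other rows and 14.5% of all (5.82% above, 8.67% below). PUT1 led those above. It was transcribed at 170, 195 and 175 signal units per hour at 27°C, against 15.3, 15.2 and 18.8 at 17°C, a Q10 of 10.9 and a log2 departure from the median of 1.65 ± 0.17 (adjusted p = 0.00067). The other 3 above were CAX3 (AT3G51860), a calcium exchanger of the vacuole, CAT2 and COPT5, with Q10 of 5.45, 5.33 and 5.19. Their departures of 0.64, 0.61 and 0.58 (adjusted p = 0.048, 0.047 and 0.045) lay at the edge of the threshold. COPT5 was called in none of 6 alternatives that gave it a value, CAT2 in 2 of 9 and CAX3 in 2 of 10. Also among the 5 highest were OPT1 (6.33) and the clathrin light chain gene AT3G51890 (5.34), which were not called.

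Below the median stood PUP18 with a Q10 of 1.38 (log2 departure -1.35 ± 0.27, adjusted p = 0.011), AT5G15240 with 1.75 (-1.0 ± 0.23, adjusted p = 0.019), TDT with 1.95 (-0.84 ± 0.16, adjusted p = 0.0087), PHT4;5 with 1.98 (-0.82 ± 0.16, adjusted p = 0.0093) and NRT2.7 with 2.28 (-0.61 ± 0.18, adjusted p = 0.043). TDT was transcribed at 1715 ± 146 signal units per hour in the 27°C seedlings, against 878 ± 4.38 in those at 17°C (SD, n = 3 each). PUP18 had uneven total RNA, at 198, 638 and 166 at 27°C end and 392, 413 and 763 at 17°C end. NRT2.7 was called in 2 of 10 alternatives and AT5G15240 in 6 of 10. PUT1, PUP18 and TDT were called in all 10, and PHT4;5 in all 7 that gave it a value. With fewer replicates fewer passed: 3 transporters departed without 27°C replicate 1, 4 without 27°C replicate 3 or 17°C replicate 2, and 5 without 27°C replicate 2 or 17°C replicate 3.

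At 27°C 29 of the 45 decayed faster and none slower, or 64.4% against 67.8% of the other rows and 64.4% of all probe sets with rates (64.3% faster, 0.0494% slower). The mean half-life was shorter at 27°C for 41 of the 45. Of the 29 calls 9 held under every alternative, and 17 transporters were called without 27°C replicate 3. Half-lives had a median over the transporters of 0.978 hours (27°C) and 2.69 hours (17°C). Over the other rows the medians were 1.12 hours (27°C) and 3.57 hours (17°C), and over all probe sets with rates they were 1.1 hours (27°C) and 3.55 hours (17°C). Taken in each replicate, the median at 17°C was 3.07, 2.23 and 2.97 hours for the transporters and 3.08, 2.91 and 3.18 hours for all probe sets, so replicate 1 showed next to no gap. At 27°C 24 of the 45 had a half-life under 1 hour, which is 53.3% against 43.6% of all.

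The 5 shortest half-lives at 27°C belonged to genes that also fell in total RNA. CAX7 had 0.401, 0.362 and 0.327 hours at 27°C, against 3.01, 4.34 and 2.42 hours at 17°C, and its decay was faster at 27°C by 3.13 ± 0.33 on the log2 scale (adjusted p = 0.0063). For PTR3 the half-life was 0.371 ± 0.0305 hours at 27°C, against 2.01 ± 1.56 at 17°C, and for YSL3 it was 0.430 ± 0.0347 at 27°C, against 1.30 ± 0.307 at 17°C. PUT1 had 0.433 ± 0.0591 at 27°C and 2.36 ± 1.40 at 17°C, and OPT1 had 0.496 ± 0.149 at 27°C and 2.04 ± 1.12 at 17°C (SD, n = 3 each). The SD at 27°C was small for the first 4, while at 17°C the replicates of PTR3, PUT1 and OPT1 were scattered, as in the 3.81, 0.998 and 1.23 hours of PTR3. With total RNA at the end as the starting level, the decay difference of OPT1 turned to -1.85 (adjusted p = 0.28), and those of PTR3 (0.76, adjusted p = 0.15) and YSL3 (adjusted p = 0.07) were not called. Without 27°C replicate 3 the adjusted p was 0.056 for both OPT1 and PTR3. A half-life from a falling total is measured through the time 0 array, so it is not a separate observation from the fall.

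Among those with an SD below 0.5 of the mean at 27°C the longest half-lives were 2.60 ± 1.23 hours for XPO1A, 1.95 ± 0.126 for ABCG14 (AT1G31770), known as an exporter of cytokinin, 1.41 ± 0.57 for the plastid dicarboxylate transporter DiT2.2 (AT5G64280), 1.32 ± 0.234 for the inositol transporter INT4 (AT4G16480) and 1.30 ± 0.473 for KEA6 (SD, n = 3 each). ABCG14 had 2.02, 2.03 and 1.81 hours in the 27°C replicates, against 3.6, 2.42 and 10.2 hours in those at 17°C, and its decay did not pass the test (adjusted p = 0.095).

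The extremes of the decay Q10 rested on half-lives that the replicates did not settle. AT5G10820 had a Q10 of 16.3 with 40.2, 3.1 and 10.2 hours at 17°C. CAX7 followed with 8.96, AT5G41800 with 7.14 (decay not called, adjusted p = 0.066), PUT1 with 5.45 (adjusted p = 0.0086) and PTR3 with 5.42 (adjusted p = 0.015, a call lost with the other starting level). At the low end PHT4;5 had 0.0171 and COPT5 0.0268, each with 1 replicate at 27°C in which PE RNA barely differed from time 0 (the 27°C half-lives were 3.92, 1.18 and 2503 hours for PHT4;5 and 990, 6.11 and 3.44 hours for COPT5). Fitted to the decay constants, the log2 differences between 27°C and 17°C were -1.31 for PHT4;5, -1.65 for COPT5 and 3.37 for AT5G10820. These are less extreme than the ratios of mean half-lives. Next in decay Q10 at the low end, GPT1 had 0.783 (decay adjusted p = 0.86), OXA1 0.857 (0.88) and AT5G38380 1.42 (0.21). No transporter's decay Q10 departed from the median of all probe sets under limma; 5 had an unadjusted p under 0.05, and of all probe sets with rates 0 were called and 791 had such a p.

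**Figure D5:**
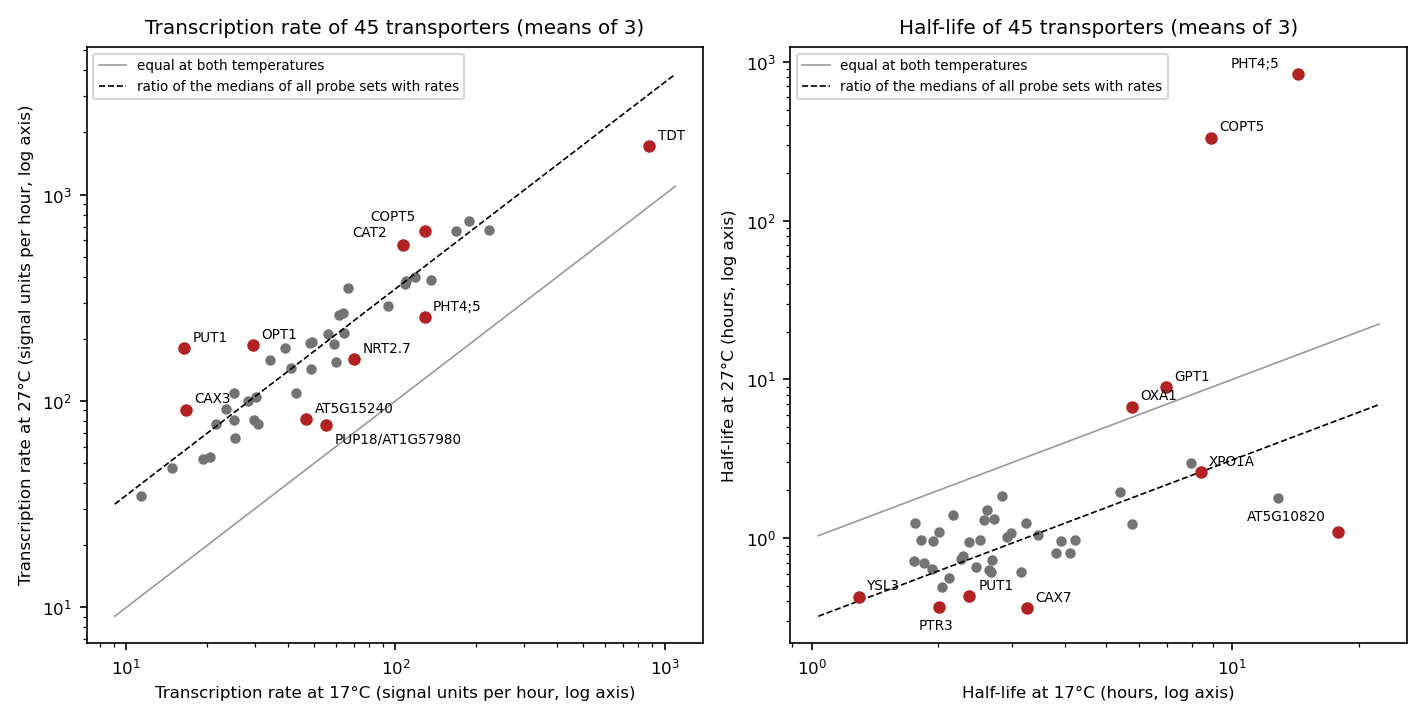
Transcription rate (left, signal units per hour) and half-life (right, hours) at 27°C on the y axis against 17°C on the x axis, both axes logarithmic, for the 45 transporter probe sets with rates. Each point is the mean of 3 replicates; PUT1 lies farthest above the line of the medians' ratio in transcription, CAX7 has the shortest half-life at 27°C (0.363 hours), and the half-lives of COPT5 and PHT4;5 rest on single replicates.

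Related genes were set side by side, without a test between them. PUT1 and PUT2 are neighbors on chromosome 1. At time 0 their differences between 27°C and 17°C were 1.83 for PUT1 and 0.48 for PUT2 (adjusted p = 0.038, not called), and their transcription Q10 were 10.9 and 3.96. Both fell at 27°C, and PUT2 was also called at 17°C. Of the amino acid permeases, AAP4 was called at time 0 and in PE RNA, while AAP5 had 769, 750 and 1065 at 27°C and 626, 522 and 605 at 17°C at time 0 (0.55, adjusted p = 0.011, not called).

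OPT4 (AT5G64410) ran in the direction of OPT1 with smaller values that did not pass, 0.76 at time 0 (adjusted p = 0.015) and -0.80 during labeling at 27°C (adjusted p = 0.011). It had 1020, 985 and 891 at 27°C and 698, 610 and 437 at 17°C at time 0, and 559, 629 and 484 at 27°C end. CAX3, set beside CAX7 by its name, had 244, 331 and 284 at 27°C end and 335, 367 and 345 at 27°C time 0 (-0.30, not called). Its change differed between the temperatures by 0.14 against -1.81 for CAX7.

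COPT1 (AT5G59030), which takes copper up at the plasma membrane, and COPT5 lay on opposite sides in the fractions. COPT1 was called as NS-rich, with 2497, 2231 and 2162 in NS RNA and 1471, 1137 and 1362 in PE RNA at 27°C (log2 difference 0.80 ± 0.16, adjusted p = 0.00053), and with a difference of 0.72 at 17°C, where COPT5 was PE-rich. The half-life of COPT1, in hours, was 0.805 ± 0.0737 at 27°C, against 3.82 ± 0.407 at 17°C (SD, n = 3 each). Of the potassium antiporters, KEA5 had 192, 167 and 188 at 27°C end and 203, 226 and 187 at 27°C time 0 and was not called as changing, while KEA6 was. The integral membrane family genes AT5G25050 and AT5G10820 had transcription Q10 values of 3.53 and 2.56. Neither was called in total RNA between the temperatures.

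In all, 27 of the 51 transporter probe sets were called in none of the 5 total RNA comparisons, which is 52.9% against 62.5% of the other rows and 56.5% of all probe sets. In none of the 9 comparisons of signals were 11 called, or 21.6% against 19.6% and 18.5%. The 11 were ABCG14, CAX3, DiT2.2, INT4, PUP18, OXA1, XPO1A, the magnesium transporter MGT9 (AT5G64560), AT5G10190, AT5G41800 and AT5G49990. Mean total signals ran from 168 for AT5G15240 to 4484 for TDT, a range of probe brightness that was not read as a range of transcript levels.

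A further 22 genes, none of them among the 50 loci, had symbols of transporter families, and 17 remained after 5 with another role by their synonyms (ZIP4, GPT, SOS3, PDR2 and ABCF1) were left out. Only probe sets with a gene name in the annotation used could match, so these are not all other transporters of the array. At time 0, 1 of the 17 was higher and 5 were lower at 27°C, and at the end 0 were higher and 5 lower. Of all probe sets 10.7% were higher and 12.1% lower at time 0, and 4.97% and 5.85% at the end. During labeling 4 rose and 2 fell at 27°C (11.2% and 14.5% of all probe sets). At 17°C 3 rose and 2 fell (5.79% and 6.53% of all probe sets). Sugar carriers of the SWEET family, which let sucrose or hexoses pass down their gradient, were called in both directions at time 0: SWEET11 was higher at 27°C by 0.80 (adjusted p = 0.00026), and SWEET2, SWEET1 and SWEET12 were lower (-1.17, -0.82 and -0.75). MTP11, a manganese transporter, was lower at 27°C at time 0 (-1.62) and at the end (-1.49), and rose during labeling at 27°C by 0.73.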

How the data were processed

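Total RNA and the NS and PE RNA separated from it on streptavidin were hybridized by the authors to 24 Affymetrix ATH1 arrays, 3 for each of 8 groups. The deposited values were MAS5 signal intensities on a linear scale, 1 per probe set and array, scaled to a trimmed mean of 500 (500.0 to 500.1 over the arrays with 2% trimmed); the MAS5 version was not given in the sources used here. An array has no count depth, and the number of replicates limits the precision. Samples were grouped by their titles, and 0 columns lacked a sample.

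Of 22810 probe sets, 64 control probe sets were left out. In place of the detection calls of the methods, a probe set was kept where its lowest total RNA signal was at least 48.2, a limit that leaves as many probe sets as the methods kept. Log2 signals were fitted with limma 3.58.1 (R 4.3.3), in 1 fit of the 12 total RNA arrays and 1 of the 12 fraction arrays, where the methods used SAM, with Benjamini-Hochberg adjustment over all probe sets. Correction factors came from 1 regression line per temperature, rates followed the equations of the methods, and log2 rates were tested with limma at an adjusted p under 0.05. Tables and plots used Python 3.11.15, numpy 2.4.6, pandas 2.3.3 and matplotlib 3.10.9. The fits of signals (1 comparison each of total and fraction arrays) and of rates were tested on simulated data. In each, 200 changes were placed, as many of 1 as of 2 log2 units. Recovered were 72 and 95 of them at the end of labeling, 58 and 90 in NS RNA and 62 and 95 for transcription. False calls were 1, 1 and 10. A transporter that was not called may thus still have changed. The tests of decay recovered none of a small set of changes placed there at the spread of these replicates, so a count of 0 departures of the decay Q10 is not informative. Same-numbered NS, PE and end of labeling total arrays come from 1 RNA sample, and their deviations from the group means correlated at 0.151 to 0.435 at 27°C and 0.235 to 0.463 at 17°C; time 0 arrays and the 2 temperatures shared only a number.

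The set, its classes, the related pairs and the marker lists were chosen with earlier results of these data known. Genes named were every called transporter of each total RNA comparison (the 8 largest folds where there were more in a direction), the 5 largest called folds in each direction in the fractions, the 5 highest and lowest Q10, every departure from the median Q10, the 5 longest and shortest half-lives at 27°C with an SD below 0.5 of the mean, the pairs, and the extremes of signal. Names of all 51 matched the reference by locus, and 15 annotations were cut short. Sequences were not analysed here. Alternatives were no filter, quantile normalization, an offset of 50, a replicate block, other regression lines and starting levels, and each replicate left out.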

Additional observations from a re-analysis of the deposited data

Results flagged for a closer look

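The change of CAX7 during labeling differed between the temperatures by a test of that difference. At 27°C it read 309, 324 and 242 at the end and 829, 681 and 808 at time 0. At 17°C it read 403, 452 and 393 at the end and 305, 298 and 348 at time 0. The change at 27°C minus the change at 17°C was -1.81 on the log2 scale (limma, adjusted p = 0.00025). The labeling time was 1 hour at 27°C and 2 hours at 17°C, and temperature and time cannot be told apart in this value. Groups held 3 arrays each, too few to look for single arrays that stand apart.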

How the results depend on the processing

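Of 2228 values recomputed for 172 calls of single transporters, 1983 kept the call, 243 lost it and 2 changed direction. Both were decay differences with the end of labeling as the starting level, -0.38 for AT5G61520 and -1.85 for OPT1, neither past the test. Without the filter on low signals the counts of called transporters were 5 at time 0, 2 at the end of labeling, 2 during labeling at 17°C, 2 in NS RNA and 4 for the transcription Q10; over all probe sets they were 1917 against 2961 at time 0, 677 against 1406 at the end, 736 against 1602 at 17°C, 42 against 302 for the difference of the changes, 754 against 1548 in NS RNA, 502 against 1155 in PE RNA and 509 against 881 for the transcription Q10. During labeling at 27°C 13 were called, and PMT6 (adjusted p = 0.011), AT5G42420, NRT2.7 and KEA6 lost the call. More probe sets were then tested. Quantile normalization gave 7 in NS RNA. With a replicate block the counts were 10 at time 0, 4 at the end, 18 during labeling at 27°C and 4 at 17°C, 1 for the difference of the changes, 5 in NS RNA, 5 in PE RNA, 24 and 27 for NS minus PE at 27°C and 17°C (RNA sample as the block), 44 for transcription, 24 for decay, 6 and 0 for the departures of the 2 Q10. The block ended the calls of PUT2 and AT5G25050 during labeling at 17°C, of CAT2, COPT5, CAX3 and NRT2.7 for the transcription Q10 (adjusted p = 0.068 to 0.075), of KEA5 for NS minus PE at 17°C (0.021), and the decay calls of INT4 (0.057), AT5G65000 (0.07), AT5G61520 (0.052), AT5G57100 (0.071) and KEA6 (0.067).

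With the end of labeling as the starting level, decay was faster for 18 transporters, the median Q10 was 3.21 for transcription and 2.51 for decay, the median half-life was 2.04 hours at 27°C and 5.39 hours at 17°C, and the median rate at 27°C was 147. With 1 regression line per replicate the median transcription Q10 was 3.44, the half-life at 27°C 1.08 hours, and the rates 134 at 27°C and 36.7 at 17°C. For rates without the filter the correction factors of the kept probe sets were used, since a line over all probe sets gave NS factors of -0.628 at 27°C and -0.540 at 17°C. The cause of these shifts was not tested.

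Leaving out 1 replicate gave ranges of 6 to 11 at time 0, 3 to 5 at the end, 14 to 18 during labeling at 27°C and 2 to 7 at 17°C (2 without time 0 replicate 1 or 3), 1 to 2 for the difference of the changes, 2 to 6 in NS RNA, 2 to 4 in PE RNA, 18 to 22 and 20 to 26 for NS minus PE at 27°C and 17°C, 42 to 48 for transcription, 17 to 34 for decay, and 3 to 6 and 0 for the departures of the Q10. The medians ranged over 3.06 to 3.96 and 2.76 to 3.63 for the Q10 of transcription and decay, 0.978 to 1.01 and 2.68 to 3.06 hours for half-lives at 27°C and 17°C, and 147 to 180 and 41.6 to 48.4 for rates at 27°C and 17°C. Leaving out a replicate also changed which transporters had rates. Counts with a block, after quantile normalization, with another starting level or without a replicate are of transporters alone. Whether all probe sets moved alike under these settings is not given here.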
